A study of Arabidopsis thaliana with 12 samples.

Results

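Roots that overexpress ERF114 were set against roots that carry a repressor form of the related factor ERF115. The 6 libraries of these 2 lines, of 12 in the series, were compared across the 23375 of 37884 genes whose normalized count averaged at least 10 over all 12 libraries, and the 3 WT libraries served as the level of the unmodified plant. Every library came from the roots of Arabidopsis thaliana seedlings grown for 4 days on 1/2 MS, with 3 libraries per group. The ERF114OX line carries 35S:ERF114. Its titles name ERF114, but its genotype label also writes ERF115OX in brackets. The ERF115-SRDX line carries 35S:ERF115-SRDX, a fusion of ERF115 with a short repression domain. WT is Col-0. The other 3 libraries, from a line that overexpresses ERF115 (ERF115OX), entered the estimate of the spread and the mean used to filter genes. They also entered the choice of the genes that set WT 3 apart and the fit with a covariate, both given below. The viral 35S promoter is active in most cell types, so neither transgene is limited to the cells that normally use the gene, and the labels do not say how many independent lines were pooled or whether replicates were separate cultures. What the p-values below weigh a difference against is thus the variation among the libraries of a group, and that variation may be technical. The comparison sets a line that adds an activator against a line that adds a repressor form of its relative. Because the lines differ in both transgenes, a difference between them cannot be assigned to either factor. Direct targets cannot be told apart from indirect effects.

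ERF114 and ERF115 belong to group X of the ethylene response factors, transcription factors with a single AP2/ERF DNA-binding domain. In Arabidopsis roots ERF115 is known for divisions of quiescent centre cells and for the replacement of dead stem cells, where it acts with the GRAS protein PAT1 and turns on the peptide hormone gene PSK5 and the wound-induced factor WIND1. ERF114, also named ERF BUD ENHANCER, is known for cell proliferation and the outgrowth of buds. The SRDX domain is a short motif from plant repressors that recruits co-repressors, and a factor fused to it silences genes that the unmodified factor would activate.

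Each transgene was present where its label puts it. ERF114 had 44417, 47807 and 47330 normalized counts in ERF114OX, against 24.2, 12.5 and 22.7 in ERF115-SRDX and 35.0, 10.7 and 12.9 in WT. ERF115 had 2.90, 10.6 and 5.19 in ERF114OX, against 84451, 88807 and 83518 in ERF115-SRDX and 4.86, 23.4 and 561 in WT. ERF115 was therefore not raised in the ERF114OX libraries, whatever the bracketed genotype says. Counts per gene do not separate transcripts of a transgene from those of the native locus.

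The libraries held between 47242114 and 48343410 reads, so depth hardly differed. Pearson's r of log2 values between libraries of 1 group, taken across genes, lay between 0.973 and 0.993. A pair of libraries stood apart within their groups by their photosynthetic transcripts. Over 20 photosynthetic genes, which mark green shoot tissue, the mean log2 level was 12.36 in ERF114OX 1 against 14.17 and 14.11 in ERF114OX 2 and 3, and 12.65 in ERF115-SRDX 2 against 8.19 and 8.51 in ERF115-SRDX 1 and 3. In the WT libraries it was 14.84, 14.41 and 15.44. WT 3 also stood apart: 11 genes had at most 10 reads in all over the ERF114OX and ERF115OX libraries and averaged at least 1000 normalized counts in ERF115-SRDX, and in WT 3 each of the 11 stood at between 0.479% and 0.978% of its ERF115-SRDX mean, with a median of 0.672%. The median was 0% in WT 1 and 0.0855% in WT 2, and ERF115 itself stood at 0.655% in WT 3. The source of these reads was not tested, and a WT 3 value below about 1% of the ERF115-SRDX level is given here only as a value.

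The lines differed at 13074 of the 23375 genes measured. ERF114OX was higher than ERF115-SRDX at 7004 genes and lower at 6070, at an adjusted p under 0.05 by limma with Benjamini-Hochberg adjustment over all genes tested. That is 30.0% and 26.0% of the genes, 55.9% together, and every count of a gene group below is to be read against these shares. The median absolute log2 difference of the called genes was 0.596. At an absolute log2 difference of at least 1, 2091 genes (8.95%) were higher in ERF114OX and 1832 (7.84%) lower. The tails were unequal: 39 called genes had a log2 difference of at least 5, and 190 had one of -5 or less. All differences are ERF114OX minus ERF115-SRDX on the scale of log2(normalized count + 1), given with their standard error (SE), n = 3 libraries per line, and they understate the change of genes with few reads. Over all genes tested the median difference was 0.046. At 63.2% of the genes the 3 libraries of 1 line did not overlap those of the other, with ERF114OX above at 33.6% and below at 29.7%, so a lack of overlap is common and is given for single genes only as a description.

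**Figure D1:**
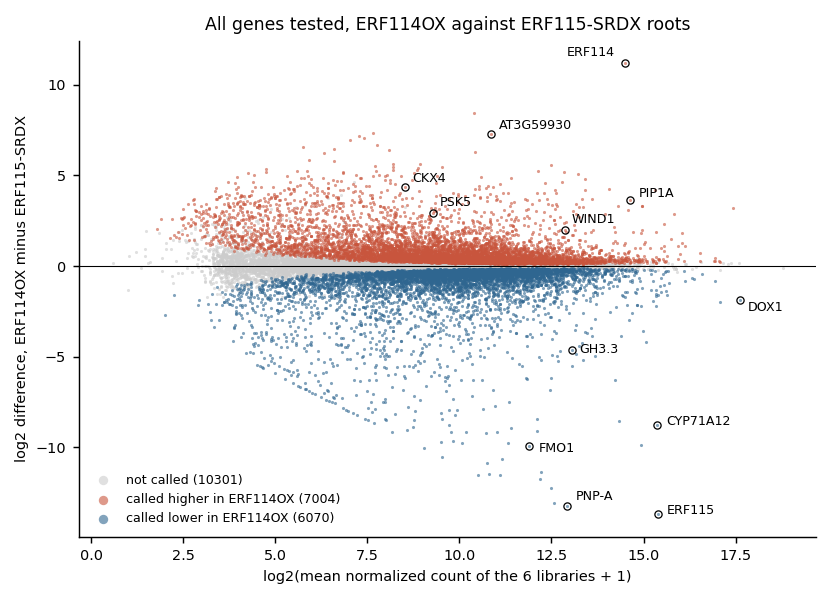
All 23375 genes tested, with the mean level of the 6 libraries on the horizontal axis (log2 of normalized count + 1) and the log2 difference of ERF114OX minus ERF115-SRDX on the vertical axis. Red and blue points are the 7004 genes called higher and the 6070 called lower in ERF114OX, grey points were not called, and the downward tail reaches further than the upward one.

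The widest gaps in the downward direction were genes close to silent in ERF114OX. PNP-A, which encodes a secreted plant natriuretic peptide, had 0, 1.06 and 1.04 normalized counts in ERF114OX, against 13628, 16596 and 15944 in ERF115-SRDX and 9.72, 3.90 and 99.6 in WT (adjusted p = 3.6e-08). SAG13, a short-chain dehydrogenase gene named for its rise in senescing leaves, had 1.94, 0 and 0 in ERF114OX, against 12935, 12644 and 11199 in ERF115-SRDX and 5.83, 57.6 and 118 in WT (adjusted p = 2.7e-08). The 2 lines were far apart in both genes, with WT next to ERF114OX. The lectin receptor kinase genes AT2G29220 and AT2G29250, the wall-associated kinase gene WAK3 and the secreted lipase gene GLIP1, a component of pathogen resistance, showed the same arrangement. AT2G29250 had no read in any ERF114OX library and averaged 2911 in ERF115-SRDX, so it was at least 916-fold lower in ERF114OX, taking 3 reads per library as the floor. For the others of this set a fold would rest on 4 reads or fewer in ERF114OX, and none is given. In all, 23 called genes had no read in ERF114OX and a mean of at least 100 in ERF115-SRDX, while 1 called gene had the opposite pattern. That gene, AT5G33355 of the defensin-like family, was at least 33.9-fold higher in ERF114OX, with 46.5, 114 and 158 normalized counts there against 0 in every ERF115-SRDX library and 9.72, 5.85 and 16.9 in WT.

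Among the widest gaps in the upward direction, several were abundant in WT and nearly lost in ERF115-SRDX. AT3G59930, a defensin-like peptide gene, had 2794, 4147 and 4205 normalized counts in ERF114OX, against 21.2, 20.9 and 25.7 in ERF115-SRDX and 1695, 1530 and 1635 in WT, a difference of 7.28 ± 0.16 (SE, adjusted p = 7.0e-12). MRD1 had 2479, 2815 and 2825 in ERF114OX, against 41.3, 30.3 and 31.6 in ERF115-SRDX and 2009, 2075 and 1987 in WT (6.27 ± 0.19, adjusted p = 5.9e-11). Reads of MRD1 and of the overlapping antisense transcript AT1G07887, which differed by 8.42 ± 0.48, may be split between the 2 by the counting, whose strand setting is not given. RAP2.9, a DREB-type AP2/ERF factor, had 253, 272 and 249 in ERF114OX, against 2.02, 2.09 and 0 in ERF115-SRDX and 79.7, 93.6 and 71.7 in WT. In that gene both lines left the WT range, in opposite directions. The seed storage and oil body genes CRA1 and OLEO2 were also called higher in ERF114OX, but their WT libraries were themselves far apart, at 695, 9.76 and 33.9 for CRA1.

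The peptide hormone CLE2 and the aquaporin PIP2;5 were among the genes with WT between the lines. CLE2, a small secreted ligand, had 437, 487 and 537 normalized counts in ERF114OX, against 12.1, 14.6 and 17.8 in ERF115-SRDX and 104, 146 and 121 in WT (4.96 ± 0.17, adjusted p = 1.9e-10). The 3 groups did not overlap. The same order in reverse was seen for AT3G28510, a P-loop ATPase gene, with 8.71, 5.29 and 4.15 in ERF114OX, against 1640, 1815 and 1536 in ERF115-SRDX and 64.2, 96.6 and 71.7 in WT. In all, 1372 called genes had the 3 WT libraries between an upper ERF114OX and a lower ERF115-SRDX group, and 1647 had them between an upper ERF115-SRDX and a lower ERF114OX group.

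Within group X itself, 7 of the 8 genes were measured, of which 2 were called higher and 3 lower in ERF114OX, the pair of transgenes among them. ERF108, also known as RAP2.6, had 473, 398 and 426 normalized counts in ERF114OX, against 185, 189 and 194 in ERF115-SRDX and 513, 460 and 602 in WT, a difference of 1.18 ± 0.16 (adjusted p = 5.5e-05). ERF113, the RAP2.6L gene of the same group, had 1307, 1083 and 1209 in ERF114OX, against 2713, 2707 and 2431 in ERF115-SRDX and 1221, 1319 and 1389 in WT, a difference of -1.13 ± 0.08 (adjusted p = 1.2e-07). Both genes stayed near WT in ERF114OX and left it in ERF115-SRDX, ERF108 downward and ERF113 upward. ERF109, a jasmonate-responsive member, was lower, at a log2 difference of -0.45 ± 0.14 (adjusted p = 0.017), a call lost without ERF114OX 1 (0.0607) or without ERF115-SRDX 3 (0.0511). ERF111 and ERF112 were not called (adjusted p = 0.058 and 0.50), and ERF110 did not reach the minimum level.

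Phytosulfokine genes moved in both directions. Phytosulfokine is a sulfated pentapeptide that signals through the receptor kinases PSKR1 and PSKR2 and promotes cell growth and division. PSK5 had 1065, 1052 and 1173 normalized counts in ERF114OX, against 142, 143 and 145 in ERF115-SRDX and 302, 294 and 274 in WT, a difference of 2.92 ± 0.08 (adjusted p = 2.0e-11). The 145 of ERF115-SRDX 3 is the only value of the table that does not correspond to a whole number of reads (146.8). PSK1 had 1060, 879 and 1033 in ERF114OX, against 200, 167 and 191 in ERF115-SRDX and 519, 604 and 533 in WT (2.41 ± 0.09, adjusted p = 6.0e-10). In both precursor genes WT lay between the lines, with no overlap among the 3 groups. PSKR1 ran the other way, with 2760, 2895 and 3015 in ERF114OX, against 10097, 10551 and 9252 in ERF115-SRDX and 2972, 3336 and 3420 in WT (-1.78 ± 0.06, adjusted p = 2.6e-10), and there ERF114OX lay near WT. PSK2, PSK3 and PSK4 were lower in ERF114OX (-0.87 ± 0.20, -0.57 ± 0.15 and -0.72 ± 0.15), and PSKR2 was higher by 0.32 ± 0.08. TPST, the enzyme that sulfates the peptide, differed by -0.19 ± 0.07 (adjusted p = 0.036) and was not called when ERF114OX 3 or any single ERF115-SRDX library was left out (adjusted p from 0.0613 to 0.17). Of the 8 members measured, 3 were called higher and 5 lower. PSK6 was below the minimum level.

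**Figure D2:**
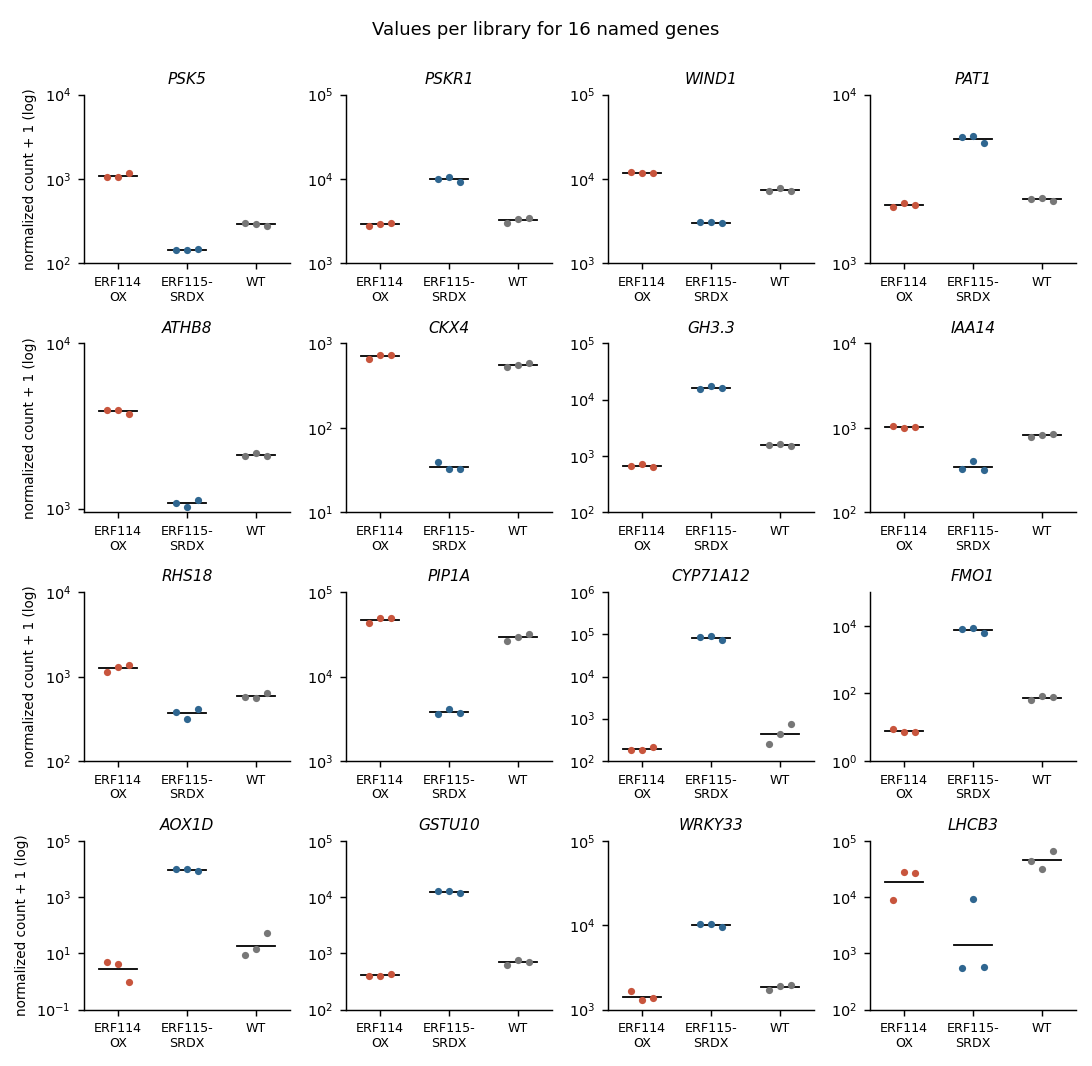
Normalized count + 1 on a log axis for 16 named genes, with 1 point per library and a line at the group mean of log2 values, for ERF114OX, ERF115-SRDX and WT. PSK5 and WIND1 have WT between the lines, PSKR1, PAT1 and the defence genes CYP71A12, FMO1 and GSTU10 are high in ERF115-SRDX only among the 3 groups shown, and LHCB3 has 1 library apart in each line.

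Regulators of wounding and regeneration were higher in ERF114OX at 9 of 14 measured genes and lower at 3, with a median difference of 0.70. WIND1, an AP2/ERF factor that promotes callus at wound sites, had 12049, 11874 and 11639 normalized counts in ERF114OX, against 3074, 3045 and 2965 in ERF115-SRDX and 7132, 7746 and 7090 in WT, a difference of 1.97 ± 0.05 (adjusted p = 9.3e-12). WIND2 had 2206, 2257 and 2197 in ERF114OX, against 980.5, 949 and 997 in ERF115-SRDX and 1592, 1520 and 1476 in WT (1.19 ± 0.05). These were among the tightest differences of the set, with no overlap between any 2 groups. PLT5, an AP2 factor of lateral root and regeneration programmes, was higher by 1.44 ± 0.17, its relatives PLT3 and PLT7 by 0.84 ± 0.13 and 0.57 ± 0.22, and WOX11, a homeobox factor of adventitious root founder cells, by 1.51 ± 0.23. HSFB1, a class B heat shock factor, was higher by 0.80 ± 0.07. The exceptions were GRAS proteins. PAT1, the known partner of ERF115, had 2148, 2260 and 2224 in ERF114OX, against 5589, 5654 and 5142 in ERF115-SRDX and 2413, 2447 and 2331 in WT (-1.30 ± 0.05, adjusted p = 3.3e-10), and SCL5 was lower, at a log2 difference of -0.59 ± 0.06. SCL1, the third, differed by -0.14 ± 0.05 (adjusted p = 0.022) and missed the threshold without ERF114OX 2, ERF115-SRDX 2 or ERF115-SRDX 3 (0.0518 to 0.0732). ESR1, ESR2, WIND4 and ANAC071 were not measured.

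Vascular genes of the procambium, the dividing tissue between xylem and phloem, were higher in ERF114OX at 8 of 12 members and lower at 1 (median 0.57). ATHB8, a class III HD-ZIP factor that marks procambial cells, had 3962, 3931 and 3747 normalized counts in ERF114OX, against 1087, 1019 and 1123 in ERF115-SRDX and 2078, 2181 and 2084 in WT, a difference of 1.85 ± 0.05 (adjusted p = 4.9e-11). WT lay between the lines here and in PXY, the receptor kinase that keeps cambial cells dividing, which had 2484, 2638 and 2569 in ERF114OX, against 1128, 1219 and 1209 in ERF115-SRDX and 1617, 1736 and 1607 in WT (1.113 ± 0.053). WOX4, which acts downstream of PXY, was higher by 1.53 ± 0.27. Other class III HD-ZIP genes were higher by less, PHB by 0.75 ± 0.06, REV by 0.57 ± 0.04 and ATHB15 by 0.57 ± 0.06, while PHV differed by 0.07 ± 0.05 (adjusted p = 0.30). T5L1 and LHW, which form a bHLH pair that drives vascular divisions, were higher by 0.70 ± 0.08 and 0.47 ± 0.06, and TMO5, the relative of T5L1, was lower, at a log2 difference of -0.27 ± 0.07.

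Phloem genes followed in part, with 7 of 16 higher in ERF114OX and 2 lower (median 0.31). The early phloem DOF factors PEAR1, PEAR2, TMO6 and DOF6 were higher by 0.95 ± 0.12, 1.21 ± 0.14, 0.84 ± 0.08 and 0.57 ± 0.17, and so was APL, a regulator of phloem identity (0.79 ± 0.10). SUC2, SEOR1 and CALS7, genes of mature sieve elements and companion cells, were not called. Xylem and secondary wall genes were called at about the shares of all genes (30.0% higher and 26.0% lower), with 6 of 20 higher and 5 lower. Without ERF114OX 1, 3 were higher. VND7, the NAC factor that switches on vessel differentiation, had 184, 211 and 168 in ERF114OX, against 52.4, 45.9 and 59.3 in ERF115-SRDX and 106, 95.6 and 109 in WT (1.82 ± 0.14, adjusted p = 3.4e-07). The secondary wall cellulose synthases CESA4 and CESA7 were lower in ERF114OX, by -0.47 ± 0.09 and -0.38 ± 0.09.

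Auxin genes were higher in ERF114OX at 14 of 24 lateral root and auxin response genes, with 4 lower (median 0.35). ARF5, the auxin response factor MONOPTEROS that acts upstream of vascular patterning, had 2548, 2502 and 2461 normalized counts in ERF114OX, against 1115, 980 and 1152 in ERF115-SRDX and 1789, 1695 and 1485 in WT (1.21 ± 0.09, adjusted p = 2.0e-07). IAA14, the repressor whose stable form blocks lateral roots, had 1052, 990 and 1027 in ERF114OX, against 321, 400 and 318 in ERF115-SRDX and 778, 822 and 849 in WT (1.57 ± 0.08). LBD16, which acts in the first lateral root divisions, was higher by 1.16 ± 0.12, and its relative LBD29 was lower, at a log2 difference of -1.04 ± 0.28. Members of the GH3 family, whose enzymes join auxin to amino acids, went opposite ways. GH3.2 had 1530, 1790 and 1627 in ERF114OX, against 481, 453 and 455 in ERF115-SRDX and 470, 549 and 457 in WT (1.83 ± 0.10), so ERF114OX alone left the WT level. GH3.3 had 651, 721 and 640 in ERF114OX, against 15689, 17182 and 16100 in ERF115-SRDX and 1558, 1645 and 1523 in WT (-4.60 ± 0.06, adjusted p = 4.0e-13).

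Of 16 genes for auxin synthesis and transport, 9 were higher in ERF114OX and 4 lower (median 0.40). The influx carrier AUX1 had 9671, 10637 and 10502 in ERF114OX, against 5046, 5177 and 5023 in ERF115-SRDX and 6787, 6765 and 6666 in WT (1.01 ± 0.05), with the 3 groups apart. The efflux carriers PIN3 and PIN4 were higher by 0.38 ± 0.08 and 0.53 ± 0.08, PIN7 was lower, at a log2 difference of -0.56 ± 0.08, and PIN2 differed by 0.11 ± 0.07 (adjusted p = 0.19). Among the YUCCA enzymes of auxin synthesis, YUC8 and YUC3 were higher (1.28 ± 0.09 and 0.73 ± 0.11) and YUC9 lower (-1.22 ± 0.13).

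Cytokinin genes were higher in ERF114OX at 8 of 17 members and lower at 3 (median 0.14). CKX4, a cytokinin oxidase that degrades the hormone, had 648, 729 and 730 normalized counts in ERF114OX, against 38.3, 31.3 and 31.6 in ERF115-SRDX and 522, 558 and 588 in WT, a difference of 4.34 ± 0.10 (adjusted p = 9.0e-12), with ERF115-SRDX much further from WT than ERF114OX. CKX5 ran the other way, with 709, 707 and 745 in ERF114OX, against 1533, 1563 and 1482 in ERF115-SRDX and 897, 841 and 920 in WT (-1.08 ± 0.06). The A-type response regulators ARR9, ARR5 and ARR4, early cytokinin targets, were higher by 0.97 ± 0.05, 0.85 ± 0.07 and 0.64 ± 0.05. ARR15 was called lower, by -1.26 ± 0.41, but not without ERF114OX 3 (adjusted p = 0.0915) or ERF115-SRDX 1 (0.0725).

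Among stem cell and root cap genes, MGP and SCL3 had the widest differences. The stem cell niche list had 4 of 10 genes higher in ERF114OX and 2 lower (median 0.21). WOX5, the homeobox gene of the quiescent centre, had 67.8, 45.5 and 89.2 in ERF114OX, against 34.3, 27.2 and 47.5 in ERF115-SRDX and 46.7, 57.6 and 48.8 in WT (0.86 ± 0.26, adjusted p = 0.014), and the libraries of the 2 lines overlapped. PLT1, PLT2 and SCR were not called. MGP, a zinc finger partner of SHR and SCR, was lower, at a log2 difference of -1.29 ± 0.07, and the GRAS gene SCL3 of the same network was higher by 1.07 ± 0.07. All 4 NAC factors of the root cap were called higher (SMB, BRN1, BRN2 and FEZ, by 0.50 to 0.87), and 1 of the 4 was called when ERF114OX 1 and ERF115-SRDX 2 were both left out. With the photosynthetic level as a covariate 4 were higher (median 0.83), and in ERF114OX 1 against ERF115-SRDX 2 the median was 0.88.

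Root hairs are outgrowths of single epidermal cells, built by a bHLH cascade from RHD6 to RSL4 and by secreted wall proteins. In ERF114OX 18 of 20 genes were higher and 0 lower, with a median of 0.67. RHD6 had 1084, 937 and 998 normalized counts in ERF114OX, against 574, 599 and 710 in ERF115-SRDX and 550, 547 and 539 in WT (0.68 ± 0.09, adjusted p = 3.9e-05). RSL4 was higher by 0.70 ± 0.09. RHS18, a root hair-specific gene, had 1132, 1289 and 1358 in ERF114OX, against 377, 316 and 406 in ERF115-SRDX and 568, 557 and 637 in WT (1.78 ± 0.10). PRP1 and PRP3, proline-rich wall proteins of the hair, were higher by 2.49 ± 0.28 and 1.26 ± 0.13, LRX1 and LRX2 by 0.77 ± 0.11 and 1.23 ± 0.09, and the hair expansins EXPA7 and EXPA18 by 0.66 ± 0.06 and 0.96 ± 0.09. In the comparisons with WT, which share the WT libraries, ERF114OX was higher at 17 of the 20 genes and lower at 0 (over all genes 17.5% higher and 19.6% lower), and ERF115-SRDX was higher at 1 and lower at 7 (23.4% and 26.6%). RHD2 and RSL1 were the 2 genes not called between the lines. Of the genes that assign epidermal fate, 0 of 9 were higher and 5 lower in ERF114OX, 3 of them without ERF114OX 2, ERF114OX 3 or ERF115-SRDX 3. The 5 were WER (-0.49 ± 0.10), GL3 (-0.39 ± 0.15), CPC (-0.39 ± 0.14), ETC1 (-1.95 ± 0.29) and TRY (-2.87 ± 0.37). Of these TRY, an R3 MYB that promotes hair fate, had 13.6, 10.6 and 6.22 in ERF114OX, against 98.8, 58.5 and 79.1 in ERF115-SRDX and 13.6, 26.3 and 11.95 in WT.

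**Figure D3:**
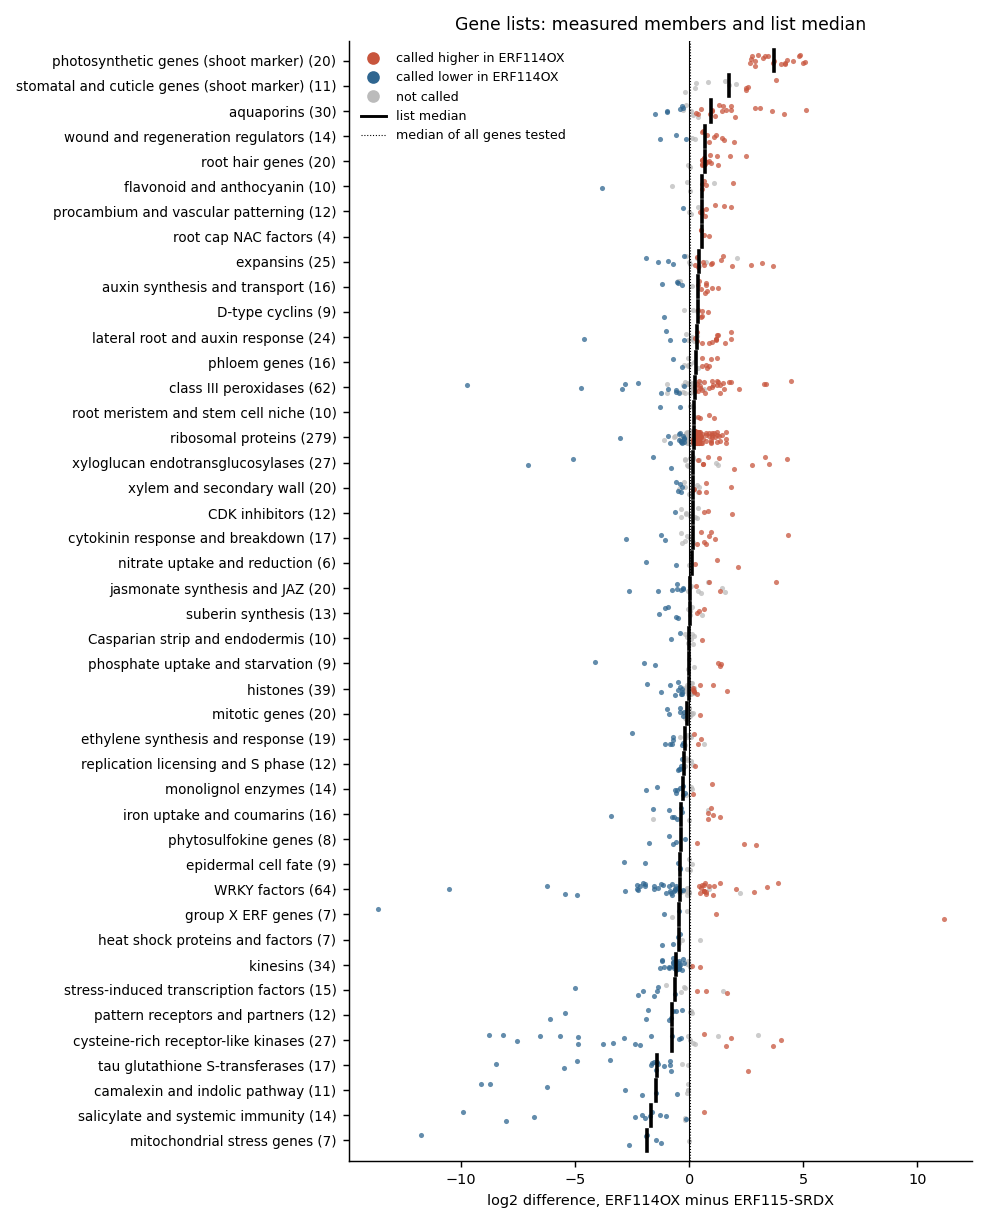
Measured members of each of the 44 gene lists and families (number in brackets) by their log2 difference of ERF114OX minus ERF115-SRDX, with the list median as a black bar and the median of all genes tested (0.046) as a dotted line. Red and blue points were called higher and lower in ERF114OX. Root hair, wound and procambium genes lie mostly to the right, and salicylate, camalexin, mitochondrial stress and glutathione transferase genes to the left.

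Water channels were higher in ERF114OX at 19 of 30 measured genes and lower at 6, with a median of 0.97. PIP1A, a plasma membrane aquaporin, had 42616, 49244 and 49272 normalized counts in ERF114OX, against 3577, 4146 and 3688 in ERF115-SRDX and 26724, 29565 and 31674 in WT, a difference of 3.63 ± 0.11 (adjusted p = 6.9e-11). PIP2A had 86094, 109952 and 109861 in ERF114OX, against 13309, 14293 and 13581 in ERF115-SRDX and 55349, 60089 and 60947 in WT (2.88 ± 0.11). The vacuolar channel TIP2;2 had 38468, 47698 and 44540 in ERF114OX, against 4663, 5517 and 4941 in ERF115-SRDX and 20682, 23396 and 23574 in WT (3.11 ± 0.13). WT lay between the lines in these 3 genes, nearer to ERF114OX. PIP2;5 had 702, 918 and 909 in ERF114OX, against 14.1, 29.2 and 30.6 in ERF115-SRDX and 149.7, 129 and 128 in WT (5.10 ± 0.25, adjusted p = 3.4e-09).

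Wall-loosening genes were mixed. Of 25 expansins 13 were higher in ERF114OX and 5 lower (median 0.41), but EXP3 and EXPA8, the widest, had ERF115-SRDX libraries that split like the photosynthetic genes, with 76.6, 260 and 81.1 for EXP3. EXPB3 was lower, at a log2 difference of -1.88 ± 0.12. Among xyloglucan endotransglucosylases 10 of 27 were higher and 4 lower. XTH20, which acts in cell proliferation after wounding, had 5054, 4942 and 5040 in ERF114OX, against 445, 471 and 410 in ERF115-SRDX and 739, 588 and 449 in WT (3.502 ± 0.130, adjusted p = 3.4e-10), while ERF115-SRDX was slightly below WT (-0.39 ± 0.13, adjusted p = 0.023). XTH12 and XTH14 were higher by 2.76 ± 0.16 and 1.32 ± 0.09, and XTH24 was lower, at a log2 difference of -1.61 ± 0.15. The widest difference of the family was that of XTH2, at -7.09 ± 0.51. It had 0, 0 and 2.07 in ERF114OX, against 217, 211 and 168 in ERF115-SRDX and 11.7, 19.5 and 17.9 in WT.

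Nutrient transporters included large single differences. The nitrate transporter and sensor NRT1.1 had 31259, 31164 and 30123 in ERF114OX, against 6282, 7810 and 7083 in ERF115-SRDX and 20511, 21470 and 20326 in WT (2.13 ± 0.10, adjusted p = 2.2e-09). Of the 6 nitrate genes measured 3 were higher and 2 lower, and NIA2 among the higher ones was no longer called without any single one of ERF114OX 2, ERF114OX 3, ERF115-SRDX 1 and ERF115-SRDX 3 (adjusted p from 0.0679 to 0.0877). Phosphate genes were split, 3 higher and 3 lower of 9. PHO1, which loads phosphate into the xylem, had 16425, 15134 and 15415 in ERF114OX, against 5868, 5746 and 6325 in ERF115-SRDX and 13419, 15414 and 13736 in WT (1.39 ± 0.06). The phosphate starvation marker SPX3 had 24.2, 23.3 and 31.1 in ERF114OX, against 509, 493 and 413 in ERF115-SRDX and 8.75, 10.7 and 7.97 in WT (-4.12 ± 0.28). Iron genes were 5 higher and 8 lower of 16. IRT1 and FRO2, the iron transporter and ferric reductase of the root surface, were higher by 1.04 ± 0.16 and 0.94 ± 0.11, while F6'H1, the first enzyme of coumarin synthesis, had 2170, 1913 and 2044 in ERF114OX, against 23123, 24198 and 19079 in ERF115-SRDX and 2617, 2836 and 3106 in WT (-3.43 ± 0.10, adjusted p = 4.1e-11).

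Defence genes formed the other side of the comparison. Salicylate is the hormone of immunity against biotrophic pathogens, and it is made through ICS1, EDS5 and PBS3. Of 14 measured genes of salicylate and systemic immunity, 11 were lower in ERF114OX, with a list median of -1.68. FMO1, which makes the mobile immune signal N-hydroxypipecolic acid, had 7.75, 6.35 and 6.22 normalized counts in ERF114OX, against 8108, 8486 and 6287 in ERF115-SRDX and 64.2, 83.9 and 76.7 in WT, a difference of -9.93 ± 0.26 (adjusted p = 2.1e-11). The 3 groups were far apart, with WT between. CBP60G, a transcription factor that turns on ICS1, had 30.0, 33.9 and 33.2 in ERF114OX, against 4460, 3668 and 3259 in ERF115-SRDX and 52.5, 72.2 and 78.7 in WT (-6.82 ± 0.19). ICS1 and EDS5 were lower, at a log2 difference of -1.71 ± 0.11 and -2.05 ± 0.09, and the immune regulators EDS1, PAD4 and SAG101 by -1.65 ± 0.06, -1.27 ± 0.09 and -2.36 ± 0.10. WRKY38 was the 1 gene called higher (0.67 ± 0.22, adjusted p = 0.022), and it missed the threshold without ERF114OX 1, ERF115-SRDX 1 or ERF115-SRDX 3 (0.0522 to 0.0964). ALD1 and SARD1 were not called, and the salicylate output genes PR1, PR2 and PR5 were below the minimum level.

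Camalexin, the indolic antimicrobial compound of Arabidopsis, is made from tryptophan through CYP79B2, CYP71A12, CYP71A13 and PAD3. Of 11 genes of camalexin and related indolic pathways, named camalexin genes here, 7 were lower in ERF114OX and 0 higher (median -1.48). CYP71A12 had 180, 183 and 217 in ERF114OX, against 88918, 91035 and 73092 in ERF115-SRDX and 256, 430 and 729 in WT (-8.76 ± 0.29, adjusted p = 1.5e-10). PAD3 had 682, 433 and 409 in ERF114OX, against 39633, 40263 and 33959 in ERF115-SRDX and 553, 571 and 675 in WT (-6.26 ± 0.17), and WRKY33, a factor that activates PAD3, had 1644, 1294 and 1365 in ERF114OX, against 10284, 10274 and 9664 in ERF115-SRDX and 1704, 1921 and 1936 in WT (-2.82 ± 0.10). ERF114OX lay nearer to WT than ERF115-SRDX in these genes. CYP71A12 and CYP71A13 are close copies, and the counting may divide shared reads between them. CYP79B3, CYP83B1, MYB34 and MYB51, which also serve indole glucosinolates, were not called.

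Pattern receptors and their partners in signalling were lower in ERF114OX at 9 of 12 genes, and 0 were higher (median -0.75). FRK1, a marker of pattern-triggered signalling, had 17.43, 23.3 and 22.8 in ERF114OX, against 1573, 1730 and 1331 in ERF115-SRDX and 74.8, 64.4 and 56.8 in WT (-6.13 ± 0.22, adjusted p = 2.7e-10). FLS2, the flagellin receptor, had 5.81, 6.35 and 16.6 in ERF114OX, against 375, 458 and 419 in ERF115-SRDX and 284, 74.1 and 241 in WT (-5.44 ± 0.52), so here ERF114OX lay further from WT than ERF115-SRDX on the log scale. The shared adaptor SOBIR1 and the oxidase RBOHD were lower, at a log2 difference of -1.89 ± 0.09 and -0.90 ± 0.07, while BAK1, PEPR1 and RBOHF were not called. Without ERF114OX 1 the list had 1 gene called higher. Cysteine-rich receptor-like kinases were lower at 16 of 27 genes and higher at 5 (median -0.76). CRK11 had 381, 379 and 386 in ERF114OX, against 11248, 12533 and 10401 in ERF115-SRDX and 774, 921 and 1072 in WT (-4.89 ± 0.11, adjusted p = 9.3e-12). CRK36, CRK10 and CRK31 were lower, at a log2 difference of -6.55 ± 0.27, -3.36 ± 0.12 and -8.78 ± 0.64.

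WRKY factors, most of which respond to pathogens, split into 31 lower and 19 higher of 64 measured in ERF114OX. WRKY55 had no read in any ERF114OX library, against 1565, 1518 and 1365 in ERF115-SRDX and 0.97, 0 and 9.96 in WT, so it was at least 467-fold lower in ERF114OX. WRKY8 had 93.9, 60.4 and 82.0 in ERF114OX, against 2497, 2404 and 2305 in ERF115-SRDX and 44.7, 56.6 and 57.8 in WT (-4.94 ± 0.20). The opposite case was WRKY57, with 2871, 2410 and 2340 in ERF114OX, against 175, 147 and 184 in ERF115-SRDX and 968, 854 and 1020 in WT (3.90 ± 0.11, adjusted p = 4.6e-11). WRKY42 was also higher, by 2.86 ± 0.11. Of 15 stress-induced factors, 6 of them WRKY genes counted above, 7 were lower and 3 higher (median -0.64). ZAT12, a zinc finger factor of oxidative stress, had 1052, 1157 and 973 in ERF114OX, against 4847, 5364 and 4763 in ERF115-SRDX and 698, 742 and 715 in WT (-2.23 ± 0.08), and ZAT6 was higher by 1.66 ± 0.12.

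Genes of mitochondrial stress and detoxification were lower as well. When electron transport is blocked, plant mitochondria signal to the nucleus through NAC013 and NAC017 and raise alternative oxidase. Of 7 such genes 6 were lower in ERF114OX and 0 higher (median -1.86). AOX1D, an alternative oxidase, had 3.87, 3.18 and 0 normalized counts in ERF114OX, against 9757, 9977 and 8514 in ERF115-SRDX and 7.78, 13.7 and 53.8 in WT (-11.75 ± 0.64, adjusted p = 9.9e-09). AOX1A had 4596, 4997 and 4969 in ERF114OX, against 13326, 14382 and 12569 in ERF115-SRDX and 4308, 4813 and 5001 in WT (-1.47 ± 0.07). UPOX and OM66, further targets of the pathway, were lower, at a log2 difference of -2.65 ± 0.16 and -1.90 ± 0.12 and NAC013 by -1.23 ± 0.07, while NAC017 differed by -0.01 ± 0.05. The tau class of glutathione S-transferases, enzymes that conjugate reactive compounds, was lower in ERF114OX at 14 of 17 genes and higher at 1 (median -1.42). GSTU10 had 392, 400 and 433 in ERF114OX, against 12776, 13066 and 11824 in ERF115-SRDX and 624, 757 and 703 in WT (-4.94 ± 0.11, adjusted p = 6.9e-12). GSTU4 and GSTU12 were lower, at a log2 difference of -3.46 ± 0.10 and -5.51 ± 0.44. GSTU5 was the exception, with 1922, 2384 and 2349 in ERF114OX, against 315, 450 and 363 in ERF115-SRDX and 1421, 1406 and 1488 in WT (2.57 ± 0.12). Some tau genes are tandem copies that may share reads. Heat shock genes were lower at 4 of 7 and higher at 0, led by HSP17.4 and HSP90.1 (-1.20 ± 0.26 and -0.71 ± 0.08).

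Phenylpropanoid genes include the lignin and the flavonoid branch. Of 14 monolignol enzymes, which make the units of lignin, 9 were lower in ERF114OX, with a median of -0.27. 4CL1 had 16237, 16235 and 16426 in ERF114OX, against 58377, 68959 and 57240 in ERF115-SRDX and 11634, 12795 and 13411 in WT (-1.91 ± 0.09, adjusted p = 3.4e-09), and 4CL2 was lower, at a log2 difference of -1.41 ± 0.06. CAD5, the last enzyme of the branch, was higher by 0.99 ± 0.08. Called higher as well was CCR1 (0.18 ± 0.06, adjusted p = 0.024), which lost its call under TMM scaling and without any single one of ERF114OX 2, ERF114OX 3, ERF115-SRDX 1 and ERF115-SRDX 3 (0.0583 to 0.0879). Flavonoid genes, of the other branch, were higher at 5 of 10 and lower at 1 (median 0.57). With the photosynthetic level as a covariate 4 were higher and 2 lower, with a median of 0.10, and in ERF114OX 1 against ERF115-SRDX 2 the median was 0.15. CHS, which opens the branch, had 25201, 25985 and 25077 in ERF114OX, against 13936, 17697 and 14202 in ERF115-SRDX and 14817, 16389 and 16505 in WT (0.74 ± 0.09), and its regulator MYB12 was higher by 1.93 ± 0.13. The 1 gene lower was DFR of the anthocyanin steps, at 1.94, 2.12 and 2.07 in ERF114OX, against 16.1, 241 and 17.8 in ERF115-SRDX, where ERF115-SRDX 2 stood alone. Class III peroxidases were higher at 27 of 62 and lower at 11.

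Of the abundant genes, DOX1, an alpha-dioxygenase of oxylipin defence, had 79923, 90917 and 91483 normalized counts in ERF114OX, against 323614, 342459 and 288359 in ERF115-SRDX and 110178, 126287 and 127204 in WT (-1.86 ± 0.11). PEN3, an ABC transporter of indolic defence compounds, and ADC2, an arginine decarboxylase of polyamine synthesis, were lower, at a log2 difference of -1.59 ± 0.08 and -1.38 ± 0.08. The non-coding transcript AT3G06365 and SAMDC, an S-adenosylmethionine decarboxylase of polyamine synthesis, were higher by 3.203 ± 0.233 and 1.104 ± 0.061.

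Jasmonate synthesis and JAZ repressor genes were higher in ERF114OX at 4 of 20 and lower at 8, and 7 were higher without ERF115-SRDX 2. Their median was 0.044, and it turned negative with edgeR and DESeq2. With the photosynthetic level as a covariate 4 were higher and 11 lower, with a median of -0.33. JAZ9 had 375, 441 and 437 in ERF114OX, against 20.2, 73.1 and 15.8 in ERF115-SRDX and 369, 374 and 647 in WT (3.81 ± 0.42, adjusted p = 7.8e-06), while JAZ1 was lower, at a log2 difference of -1.38 ± 0.10. LOX2, a leaf lipoxygenase, was at 0, 935 and 1.98 in the ERF115-SRDX libraries and was not called. Ethylene genes were higher at 3 of 19 and lower at 8 (median -0.20), and with that covariate at 0 and 9 (median -0.37). ACS6, a stress-induced enzyme of ethylene synthesis, had 507, 524 and 484 in ERF114OX, against 3041, 2689 and 2816 in ERF115-SRDX and 722, 680 and 642 in WT (-2.49 ± 0.07, adjusted p = 2.7e-11). Of the receptors, EIN4 was higher by 0.22 ± 0.06 (adjusted p = 0.0073), and ETR1, ERS1, ERS2 and ETR2 were not called. ACS5, called higher by 0.39 ± 0.13, missed the threshold without ERF114OX 1, ERF114OX 2, ERF115-SRDX 1 or ERF115-SRDX 3 (0.0536 to 0.0766).

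Among genes of cell division, kinesins were mostly lower in ERF114OX and D-type cyclins more often higher than lower. Of 34 kinesins, motor proteins of the microtubules, 28 were lower in ERF114OX, with a median of -0.60. ATK5, a spindle kinesin, had 1337, 1171 and 1144 normalized counts in ERF114OX, against 2833, 2766 and 2727 in ERF115-SRDX and 1380, 1634 and 1371 in WT (-1.19 ± 0.08, adjusted p = 4.1e-08). POK2 and HINKEL, kinesins of the division plane and of cytokinesis, were lower, at a log2 difference of -1.18 ± 0.11 and -0.87 ± 0.11. Of 20 mitotic genes, of which HINKEL is also counted among the kinesins, 6 were lower and 1 higher (median -0.10). In all, 35% of the mitotic list was called, against 55.9% of all genes. The spindle factor TPX2 was lower, at a log2 difference of -0.96 ± 0.13. The mitotic cyclins CYCB1;1, CYCB1;2 and CYCB2;4 were lower at -0.39 ± 0.08, -0.25 ± 0.08 and -0.27 ± 0.08. The cyclins CYCB1;3, CYCB1;4, CYCB2;1, CYCB2;2, CYCB2;3 and CYCA1;1 were not called, nor were CDKB1;1, CDKB2;1, KNOLLE and AUR1. AUR2 was the 1 gene called higher, by 0.48 ± 0.12. Replication genes were lower at 6 of 12 and higher at 1, or 2 without ERF114OX 1 (median -0.22), MCM3 by -0.50 ± 0.07. With the photosynthetic level as a covariate, where 16.6% of all genes were higher and 19.3% lower, 20 kinesins, 2 mitotic and 3 replication genes were called lower. D-type cyclins, which open the cycle, were higher at 5 of 9 and lower at 1 (median 0.40). CYCD1;1 had 1732, 1507 and 1658 in ERF114OX, against 927, 905 and 906 in ERF115-SRDX and 1043, 905 and 963 in WT (0.84 ± 0.08). CYCD6;1, a cyclin of formative divisions, was lower, at a log2 difference of -1.12 ± 0.26. Among CDK inhibitors 3 of 12 were higher and 1 lower, KRP1 by 1.88 ± 0.25 and KRP2 by -0.61 ± 0.10.

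Casparian strip genes, which seal the endodermis, were higher at 1 of 10 and lower at 2, or 1 without ERF114OX 2, and their median of 0.009 was negative under TMM scaling, edgeR and DESeq2. Suberin genes were higher at 3 of 13 and lower at 5, with a median of 0.024 that changed sign under TMM scaling and edgeR. The transporter ABCG2 and the reductase FAR5 of suberin synthesis were lower, at a log2 difference of -1.05 ± 0.09 and -0.94 ± 0.09. Histones were higher at 8 of 39 and lower at 11, 5 being higher under TMM scaling and without ERF114OX 2, ERF115-SRDX 1 or ERF115-SRDX 2, and their median of -0.027 was positive under quantile normalization. Genes whose product names a ribosomal protein were higher at 129 of 279 and lower at 13 (median 0.20), and 7 were lower without ERF114OX 2 or without ERF115-SRDX 3. With the photosynthetic level as a covariate 77 of them were higher and 4 lower, against 16.6% and 19.3% of all genes. Plastid members such as PRPL35 and PSRP3/1 were among the widest (1.599 ± 0.254 and 1.62 ± 0.32), and the counts above do not separate plastid from cytosolic members.

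Shoot markers differed between the lines and between libraries of 1 line. All 20 photosynthetic genes were called higher in ERF114OX, with a median of 3.70. LHCB3, a light-harvesting protein, had 8752, 28177 and 27239 normalized counts in ERF114OX, against 544, 9482 and 579 in ERF115-SRDX and 44029, 31813 and 65919 in WT (3.71 ± 0.86, adjusted p = 0.0028), so ERF115-SRDX 2 lay above ERF114OX 1. Summed, the 20 genes took 0.308%, 0.988% and 0.950% of all counts in ERF114OX, against 0.024%, 0.316% and 0.026% in ERF115-SRDX and 1.73%, 1.19% and 2.43% in WT, and none was at 0 in any library. Stomatal and cuticle genes, which mark the shoot epidermis, were higher at 4 of 11 and lower at 0 (median 1.75), and 7 were higher without ERF114OX 1. FAMA and EPFL9, which define the stomatal lineage, were at 0 in ERF115-SRDX 1 and 3. In bulk samples fewer cells of a type and less RNA per cell cannot be told apart.

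Since ERF114OX 1 and ERF115-SRDX 2 had nearly the same photosynthetic level, their values alone show each group at matched level, with 1 library each and no test. The photosynthetic median was then -0.21, against 3.70 over all libraries. This small value was set by the choice of the pair, which rested on these same genes. In the same pair the median was -1.68 for salicylate genes, -1.50 for camalexin genes, -1.65 for mitochondrial stress genes and -1.37 for tau glutathione S-transferases. It was 0.67 for root hair genes, with 20 of 20 above 0, 0.83 for wound and regeneration genes, 0.60 for procambium genes and 0.58 for aquaporins. Over all genes tested the median of this pair was 0.012, with 11960 genes above 0 and 11411 below. Kinesins stood at -0.34, the mitotic list at 0.015 and ribosomal proteins at 0.21. When the photosynthetic level was entered as a covariate across all 12 libraries, 8376 genes were called, against 13074 without it, and 61.8% of those 13074 kept their call and direction. The covariate itself differed between the lines. A call lost to the photosynthetic level thus cannot be told apart from a line difference that the covariate took up. In that fit 16.6% of all genes were higher and 19.3% lower, and 18 root hair, 7 wound and 8 procambium genes were higher in ERF114OX, and 10 salicylate, 6 camalexin and 15 tau glutathione S-transferase genes lower. Other lists changed: xylem and secondary wall genes had 2 higher and 5 lower, expansins 10 higher and 7 lower, and xyloglucan endotransglucosylases 7 higher and 6 lower, with a median of -0.02 against 0.16 without the covariate. The aquaporin median was 0.63, with 15 higher and 6 lower. The photosynthetic list itself had 2 genes higher, a count that the fit largely sets, as its covariate is the level of these same genes.

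**Figure D4:**
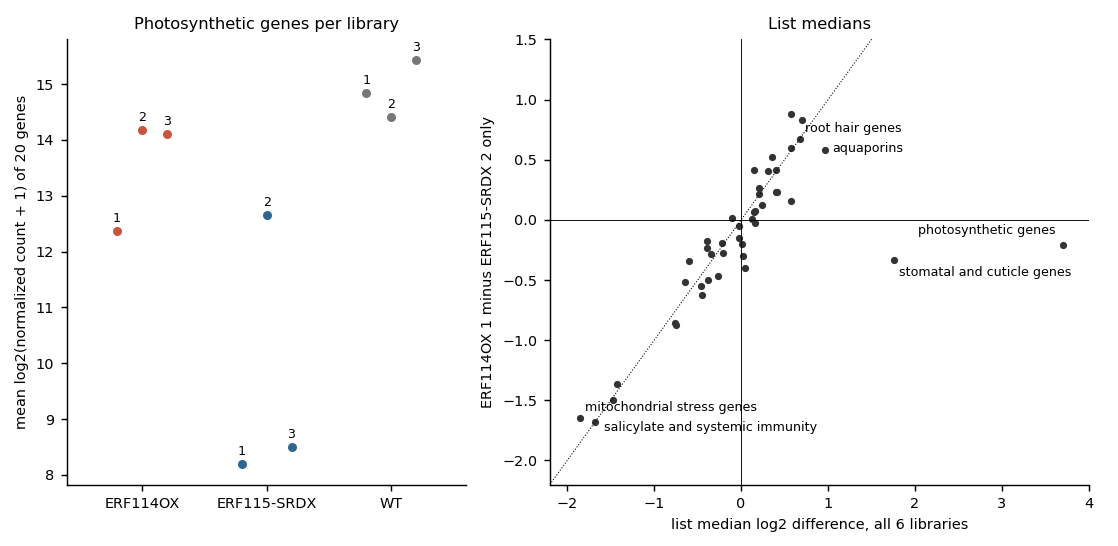
Left, the mean of log2(normalized count + 1) over 20 photosynthetic genes in each library of ERF114OX, ERF115-SRDX and WT, with replicate numbers beside the points. Right, the median log2 difference of each list in ERF114OX 1 minus ERF115-SRDX 2 against that over all 6 libraries, where the dotted line marks equal values and the photosynthetic and stomatal lists (3.70 and 1.75 over all libraries, -0.21 and -0.33 in the pair) lie far from it. The pair was chosen by its photosynthetic level, so the place of the photosynthetic list follows from that choice.

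Against WT, each line has its own values, and both comparisons share the 3 WT libraries. ERF114OX differed from WT at 8674 genes (37.1%), 4093 higher and 4581 lower, and ERF115-SRDX at 11707 (50.1%). The balance of the first shifted with the normalization, with 5136 higher and 3724 lower under quantile normalization and 3334 higher and 5278 lower under TMM scaling. At an absolute log2 difference of at least 1, ERF114OX was higher at 281 genes (1.20%) and lower at 1130 (4.83%), and ERF115-SRDX was higher at 1476 (6.31%) and lower at 2599 (11.1%). For salicylate genes the median difference from WT was -0.23 in ERF114OX and 1.59 in ERF115-SRDX, for camalexin genes -0.19 and 1.28, and for mitochondrial stress genes 0.03 and 1.51. In these defence lists ERF115-SRDX lay further from WT than ERF114OX did. Root hair genes had medians of 0.69 in ERF114OX and -0.10 in ERF115-SRDX. For wound and regeneration genes they were 0.33 and -0.29, for procambium genes 0.31 and -0.31, and for aquaporins 0.37 and -0.61. Kinesins were at -0.35 in ERF114OX and 0.13 in ERF115-SRDX, cysteine-rich receptor-like kinases at -0.91 and 0.38. Monolignol enzymes were above WT in both lines, at 0.25 and 0.52, and photosynthetic genes below it in both, at -1.36 and -5.11.

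**Figure D5:**
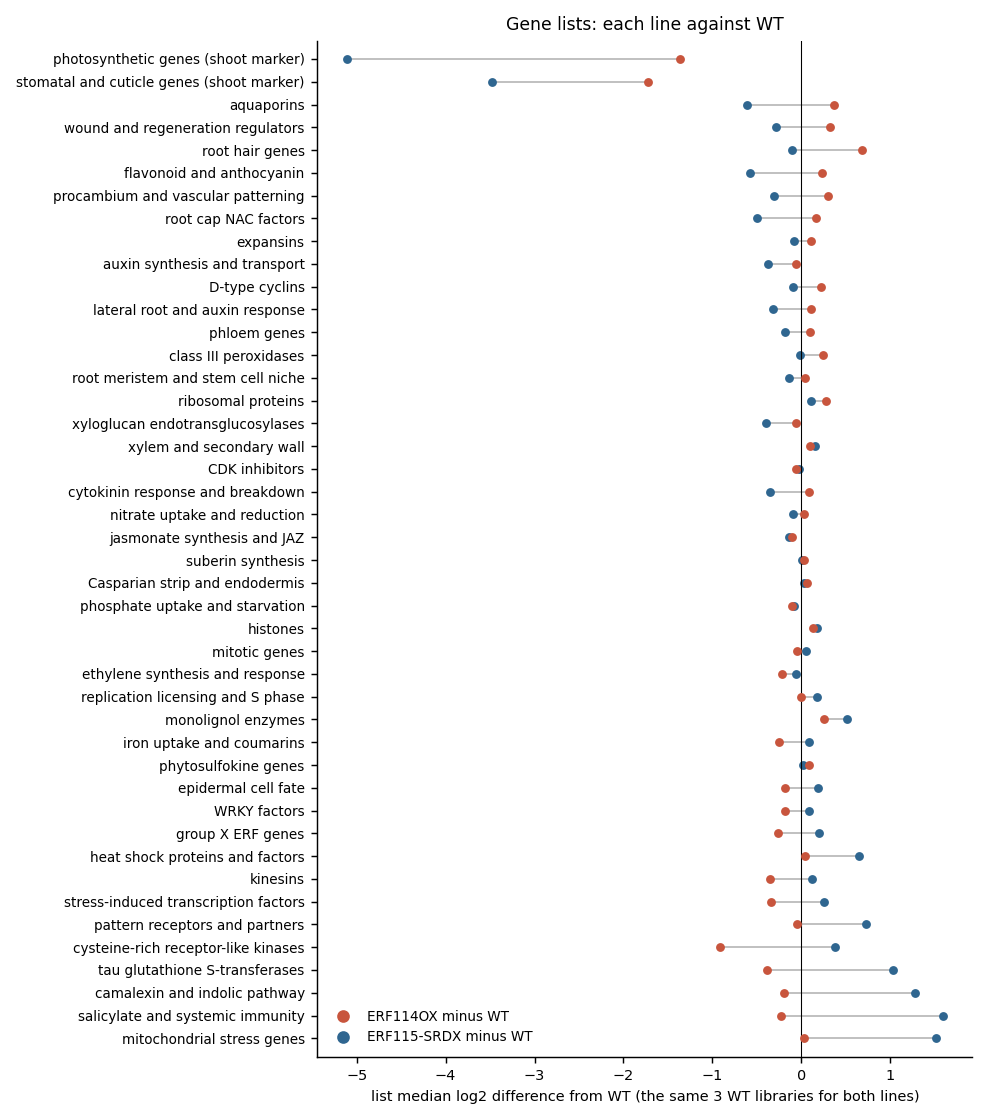
Median log2 difference from WT of each gene list in ERF114OX (red) and ERF115-SRDX (blue), both taken against the same 3 WT libraries, in the order of the lists' difference between the lines. Salicylate, camalexin and mitochondrial stress genes at the bottom have ERF115-SRDX far from 0 and ERF114OX near it, cysteine-rich receptor-like kinases and root hair genes have ERF114OX further from 0, and wound, procambium and aquaporin genes lie on both sides of 0.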

How the data were processed

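The values are counts per gene that the authors divided by DESeq2 size factors and deposited as 1 table of 12 libraries, a signal on the scale of normalized counts. The submitters' processing notes name Trimmomatic 0.39, HISAT2 2.2.1, SAMtools 1.11, featureCounts, Subread 2.0.1 and DESeq2, while for the genome build, the annotation and the strand setting nothing is given in the sources used here. The labels describe a dUTP library preparation. Of 316348 values above 0, all but 1 were whole multiples of a per-library step within a relative tolerance of 1e-06, so reads were recovered for the count tests used as alternatives. All 37884 identifiers matched RefSeq names.

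The main test was limma 3.58.1 with an intensity trend on log2(normalized count + 1), in 1 fit of all 4 groups, two-sided, for genes averaging at least 10. Counts were not tested directly because the table holds scaled values. On simulated data for ERF114OX against ERF115-SRDX (23375 genes, 50 changed at each size), it recovered 62% of 1.5-fold, 90% of 2-fold and 100% of 4-fold changes. Reads without molecular identifiers are not independent molecules, so floors of 3 reads cover counting error only.

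Members of 35 lists were named by gene identifier, and 9 families by RefSeq product, with incidental matches removed. Genes named in the text are list members, the 12 largest and 12 smallest differences, 6 abundant genes per direction, and 6 per direction with WT between the lines, the last 3 among called genes; further list members beside the 3 of smallest p per direction were chosen after their values were seen. Members, lists and rules were chosen with earlier results of these data known. Promoters and sequences were not analysed here. Alternatives covered the pseudocount, the filter, TMM and quantile scaling, edgeR 4.0.16, DESeq2 1.42.0, a fit of the 2 lines alone, a replicate block, the photosynthetic level as a covariate, and libraries left out singly or in pairs.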

Additional observations from a re-analysis of the deposited data

How the results depend on the processing

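The count of 13074 genes between ERF114OX and ERF115-SRDX stayed within 1.5 times its value under every pseudocount, filter, scaling and tool tried, at between 12297 and 13293, with edgeR and DESeq2 on recovered reads giving 12833 and 12859. With the photosynthetic level as a covariate 8376 genes were called, 3871 of them higher, and 17 called genes had the opposite sign; ERF115-SRDX against WT then had 6043 genes called, 3150 higher and 2893 lower. Without ERF115-SRDX 1 and 3 together, 8812 genes were called and 4243 were higher, the remaining library being taken to vary as much as libraries of other groups do. The causes were not tested. A log2 difference of at least 1 left 3923 genes (2091 higher, 1832 lower), 1411 for ERF114OX against WT (281 higher, 1130 lower) and 4075 for ERF115-SRDX against WT (1476 higher, 2599 lower). Leaving out any 1 library gave between 11426 and 13114 genes for the 2 lines. Of 251 named genes called, 217 were called under every setting and 0 changed direction. Same-numbered libraries correlated at 0.44, 0.38 and -0.28 in their deviations from the group means, and ERF114OX 3 correlated best with ERF115-SRDX 2 (0.39), so the numbers were not taken as pairs; a replicate block gave 12910 genes. The values of ERF114OX 1 against ERF115-SRDX 2 alone were chosen after seeing the data. The planned search of promoters for motifs was not run, as no promoter sequence was used here. Depth limits genes near the floor of 3 reads per library.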

Other observations

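SAG13, the lectin kinase genes AT2G29220 and AT2G29250 and the first tau glutathione S-transferases are neighbours on 1 chromosome. Of 34 genes from AT2G29200 to AT2G29500 in the order of their identifiers, 29 were measured, 14 were lower in ERF114OX than in ERF115-SRDX and 9 higher, with a median log2 difference of -0.32. Of the 14, 12 had a difference of -1 or less and 4 of -5 or less. GSTU5 lies inside this run and was higher, by 2.57 ± 0.12 (SE, n = 3 per line). The run was chosen after its values were seen, and no test was made of it.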
